A study of Mus musculus with 6 samples.

Results

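Fatty acid oxidation and ketone body genes were followed in the livers of 6 male C57BL/6J mice, 3 labelled Con and 3 labelled HKO. The 36 genes came from a list of mitochondrial and peroxisomal enzymes, carriers and regulators, and 34 of them had a probe set assigned to that gene alone, out of 22180 genes measured that way. Acsl1 and Acsl3 had none and were not analysed here. Con mice had the genotype Slug f/f, a floxed Slug gene (symbol Snai2, a transcription factor of the Snail family). HKO mice carried the same floxed gene with albumin-CreERT2, a Cre recombinase that is active after tamoxifen and is driven by the albumin promoter, which is a hepatocyte promoter. All 6 mice ate a high fat diet, in which fat gives 60% of calories, for 11 weeks from an age of 8 weeks. The labels do not say whether Con mice carried Cre, how it was induced or which cells lost the gene. Liver cells of HKO mice in which the albumin promoter is not active would keep the gene, which was not measured here. Each mouse gave 1 Affymetrix array, so the replicates are mice. The p-values and SEs are from limma, which combines a gene's own spread between mice with the spread over all genes.

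Fatty acids are first joined to coenzyme A by acyl-CoA synthetases and enter mitochondria through the carnitine shuttle. The beta oxidation spiral then removes acetyl-CoA in repeated cycles of dehydrogenation, hydration, dehydrogenation and thiolysis, and its electrons pass through the electron transfer flavoprotein to the respiratory chain. Peroxisomes shorten very long and branched chains with enzymes of their own. In fasted or fat-fed liver the acetyl-CoA feeds ketone body synthesis, and the nuclear receptor PPAR alpha with the coactivators Ppargc1a and Ppargc1b is known to drive many of these genes.

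Most changes in transcripts of the oxidation machinery were small between HKO and Con livers. The median log2 change (HKO minus Con) of the 34 genes was -0.04, beside -0.01 over all 22180 genes. Single changes ran from -0.60 for Vnn1 to 0.34 for Ppargc1a. Summed linear signals of the 34 genes overlapped between groups (20374 to 21161 in Con, 19519 to 20394 in HKO). For peroxisomal oxidation (5580 to 5785 in Con, 5035 to 5563 in HKO) the sums were lower in HKO without overlap. The same held for the electron transfer flavoprotein (1999 to 2076 in Con, 1847 to 1996 in HKO), and the sums of the other compartments overlapped. No gene passed an adjusted p of 0.05 in limma (0 of 34; lowest adjusted p 0.294, for Acsl5), where 0.203% of all genes did. The 95% interval of the change lay within 2-fold either way for 33 of the 34 genes, all but Vnn1, beside 97.3% of all genes, and within 0.5 log2 units either way for 24, beside 64.1% of all genes. In the self-test 6.49% of genes changed by 0.5 log2 units were called and 78.3% of those changed by 1. The self-test drew its spread from the variance fitted over all genes. The median SD was 0.10 in the members and 0.16 over all genes, so these shares do not give the part of the members that would pass.

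At an unadjusted p under 0.05 in limma, 7 of the 34 genes stood apart (20.6%), 3 higher and 4 lower in HKO, where 11.9% of all genes did, 5.31% higher and 6.56% lower. The count was 4 without Con replicate 1, Con replicate 2, HKO replicate 1 or HKO replicate 3, and 3 without Con replicate 3. The 4 without HKO replicate 1 included Acsl4 (change of 0.51), which was not among the 7. Acsl5 and Vnn1 had such a p without each of the 6 arrays in turn, while Acadsb, Eci1, Acaa1b, Ppargc1a and Ppargc1b each missed it without at least 3 of them. In 12 of the 34 (35.3%) the HKO and Con arrays did not overlap, 5 higher and 7 lower in HKO, where the share was 18.2% of all genes, 8.05% higher and 10.1% lower. The spread between mice was smaller in brighter genes (median SD 0.12 at a mean log2 level of at least 5, 0.16 over all genes), and at that level the shares were 15.6% and 27.5%, beside 7 and 12 of the 33 members there. The members were chosen with earlier results of these arrays known, so these counts describe the list and do not test it.

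**Figure D1:**
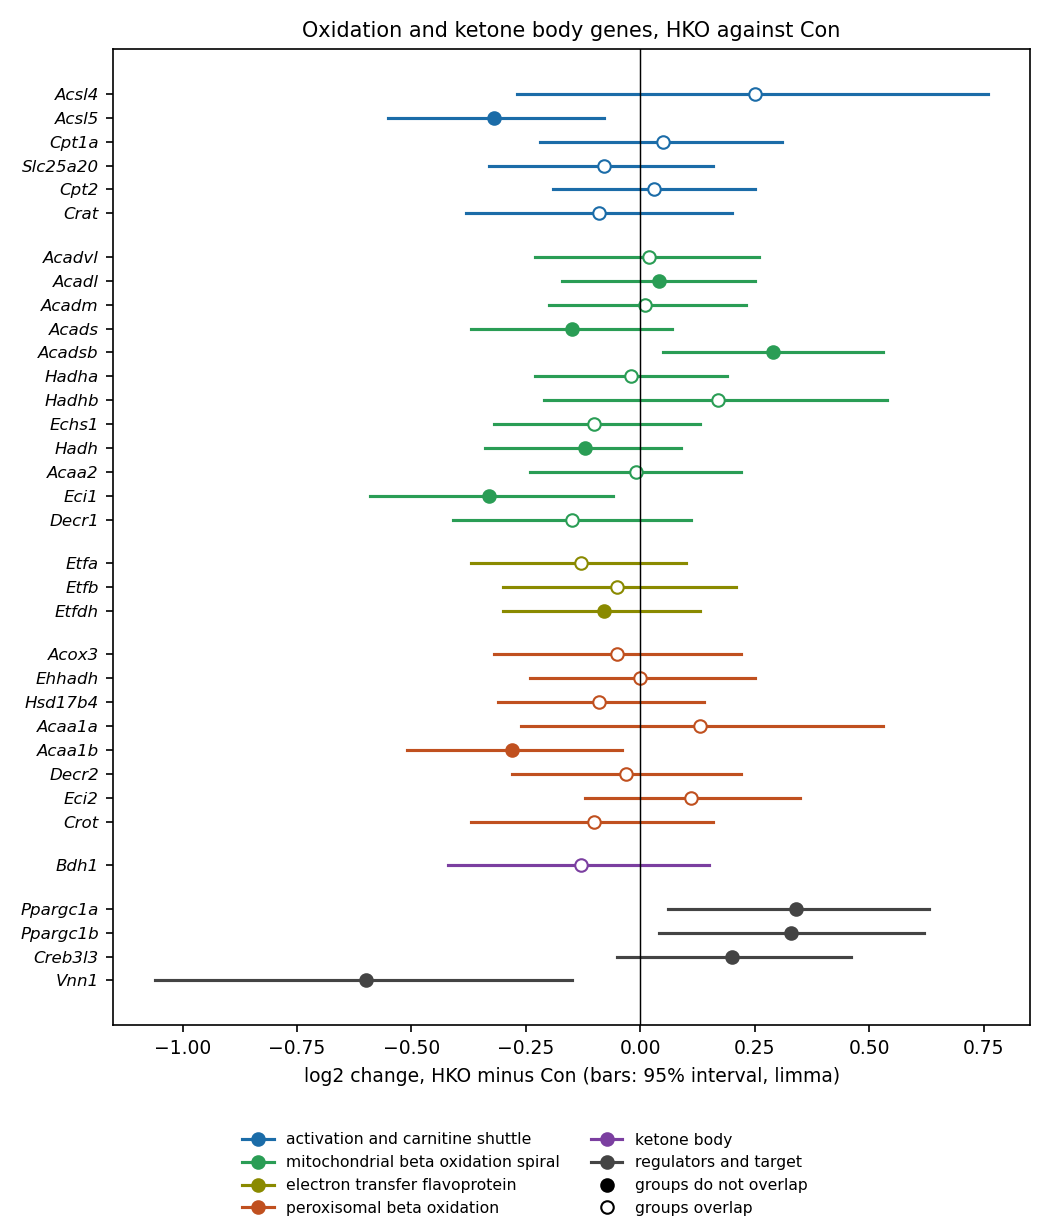
Log2 change, HKO minus Con (x axis), of the 34 genes (y axis, grouped and coloured by compartment), with the 95% interval from limma; n = 3 mice per group. Filled points mark the 12 genes whose HKO and Con arrays do not overlap. Most points lie near 0, and the intervals of Acsl5, Eci1, Acaa1b and Vnn1 lie below 0 and those of Acadsb, Ppargc1a and Ppargc1b above it.

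The targeted gene was lower in every HKO array. Snai2 (probe set 17323192) had log2 levels of 7.74, 7.69 and 7.39 in Con and 4.62, 5.23 and 5.69 in HKO (limma adjusted p = 0.0145). Arrays correlated at 0.989 to 0.992 within groups and 0.986 to 0.988 across groups. Hepatocyte markers were present on every array (10 of 10 measured, median log2 change 0.02). Their summed linear signal overlapped between groups, 25304 to 26510 in Con and 24794 to 27524 in HKO. Of these 10, Serpina1a (change of 0.40) and Cps1 (0.27) had an unadjusted limma p under 0.05 (20%, beside 11.9% of all genes). Markers of recruited macrophages moved with the groups, and all 7 measured of 8 had lower means in HKO. Itgax fell (limma adjusted p = 0.028), but its mean level was only 3.93. Itgax and Ccr2, 2 of the 7, lay below the median over genes of 3.95. The summed signal of the 7 was 357 to 381 in Con and 219 to 283 in HKO. Stellate markers (8 of 8 measured) summed to 1899 to 2136 in Con and 1668 to 1811 in HKO. Of these 8, 3 had an unadjusted limma p under 0.05, all lower in HKO (37.5%, beside 11.9% of all genes), while 3 means were higher. B and plasma cell markers (4 of 5) summed to 114 to 148 in Con and 201 to 317 in HKO. Jchain and Ighm had such a p, both higher in HKO (50%), while Cd79a changed by 0.12 and Ms4a1 by 0.02. Sums overlapped for Kupffer cells (1093 to 1418 in Con, 1103 to 1258 in HKO), sinusoidal endothelium (1682 to 1735 and 1626 to 1695), cholangiocytes (86 to 100 and 73 to 117), T and NK cells (62 to 97 and 65 to 81), exocrine pancreas (22 to 25 and 24 to 25) and the measured red blood cell marker (4 to 7 and 5 to 6). Neutrophil (31 to 35 and 28 to 30) and adipocyte markers (33 to 37 and 37 to 40) all lay below the median over genes. Sums can hide single markers. Of the 7 endothelial markers, 3 had an unadjusted limma p under 0.05 (42.9%, beside 11.9% of all genes), all lower in HKO. The changes were -0.57 for Lyve1, -0.29 for Pecam1 and -0.30 for Cdh5. Of the 8 Kupffer cell markers, C1qa had such a p (12.5%), with a change of -0.47, while 3 of the 8 means were higher in HKO. The part of other cell types in the values that follow was not tested, and in liver pieces fewer cells of a type and less RNA per cell cannot be told apart.

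All 3 regulators had higher means in HKO, and 19 of the 30 enzymes and carriers had lower ones. Means were also lower in HKO for 11484 of all 22180 genes, and for 4694 of the 8120 with a mean log2 level of at least 5. Ppargc1a, a coactivator of PPAR alpha and other receptors that is induced in fasted liver (probe set 17448001), had log2 levels of 6.27, 6.45 and 6.21 in Con and 6.68, 6.48 and 6.81 in HKO. All 3 HKO arrays were above all Con arrays, but HKO replicate 2 exceeded Con replicate 2 by only 0.03. The change was 0.34 ± 0.12 (SE; 1.27-fold), with a limma adjusted p of 0.342. Its relative Ppargc1b (probe set 17354739) had 5.36, 5.39 and 5.68 in Con and 5.94, 5.76 and 5.70 in HKO. The groups again did not overlap, by 0.03 between Con replicate 3 and HKO replicate 3. The change was 0.33 ± 0.13 (SE; limma adjusted p = 0.37).

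Creb3l3, a liver transcription factor released from the endoplasmic reticulum that acts on fasting and lipid genes (probe set 17243183), had 9.06, 8.78 and 9.03 in Con and 9.18, 9.10 and 9.20 in HKO. The groups did not overlap, and the change of 0.20 ± 0.11 (SE) had a limma adjusted p of 0.536. Without Con replicate 2, the lowest array, it was 0.11. None of the 3 regulators passed over all genes.

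Vnn1, a pantetheinase that breaks down a coenzyme A precursor and a known PPAR alpha target (probe set 17232162), went the other way. Its log2 levels were 8.86, 8.98 and 8.85 in Con and 7.80, 8.56 and 8.53 in HKO, a gap of 0.30 between the groups. Con arrays lay close together (SD 0.07, n = 3), while HKO replicate 1 lay well below the other HKO arrays (SD 0.43, n = 3). The change was -0.60 ± 0.20 (SE; 1.52-fold lower; limma adjusted p = 0.3). Without HKO replicate 1 the change was -0.35. In each of the 4 genes, the 3 regulators and Vnn1, the groups did not overlap (100%, beside 18.2% of all genes).

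The promoters of the members were read from RefSeq (GRCm38.p6), which held 30 windows for 28 of the 34 genes. Each window is the 250 bases before the gene's start. The Snail family binds the E-box CAGGTG, searched on both strands (CACCTG on the other strand). It occurred in 3 of the 30 windows, those of Cpt2, Ppargc1a and Acaa1b, and in 17.2% of 32851 such windows over all genes. Of the 7 genes with an unadjusted p under 0.05, windows of Ppargc1b and Vnn1 are not reported here. The E-box was not found in the windows of Acsl5, Acadsb and Eci1, and was found in those of Ppargc1a and Acaa1b. Both are shown, on the gene's strand, with E-boxes in capitals, for Ppargc1a at chr5:51567726-51567975 (minus strand; matches start at positions -217 and -63 from the gene's start) and for Acaa1b at chr9:119157094-119157343 (minus strand; match at -146).
Ppargc1a: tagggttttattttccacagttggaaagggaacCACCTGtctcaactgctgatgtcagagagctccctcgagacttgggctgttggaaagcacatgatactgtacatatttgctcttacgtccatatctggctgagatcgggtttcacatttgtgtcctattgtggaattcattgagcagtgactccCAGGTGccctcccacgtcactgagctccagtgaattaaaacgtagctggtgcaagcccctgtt
Acaa1b: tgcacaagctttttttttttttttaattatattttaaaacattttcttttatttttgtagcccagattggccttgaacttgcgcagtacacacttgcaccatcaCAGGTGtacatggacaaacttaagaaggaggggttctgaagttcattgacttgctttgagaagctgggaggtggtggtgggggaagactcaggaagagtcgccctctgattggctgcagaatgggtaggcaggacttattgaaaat
The mean of Ppargc1a was higher and that of Acaa1b lower in HKO. The nuclear receptor core AGGTCA, on either strand, occurred in 5 of the 30 windows (16.7%; Acadm, Echs1, Creb3l3, Acadvl and Cpt1a) and in 14% of all windows. The PPAR element, a direct repeat of AGGTCA with 1 base between its copies, searched on both strands and overlapping the core search, and the cyclic AMP element TGACGTCA were in 0 of the 30 windows, beside 0.0335% and 1.55% of all windows. With elements this rare over all windows, 0 of 30 does not set the members apart. These matches are descriptions of letters, not of binding.

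**Figure D2:**
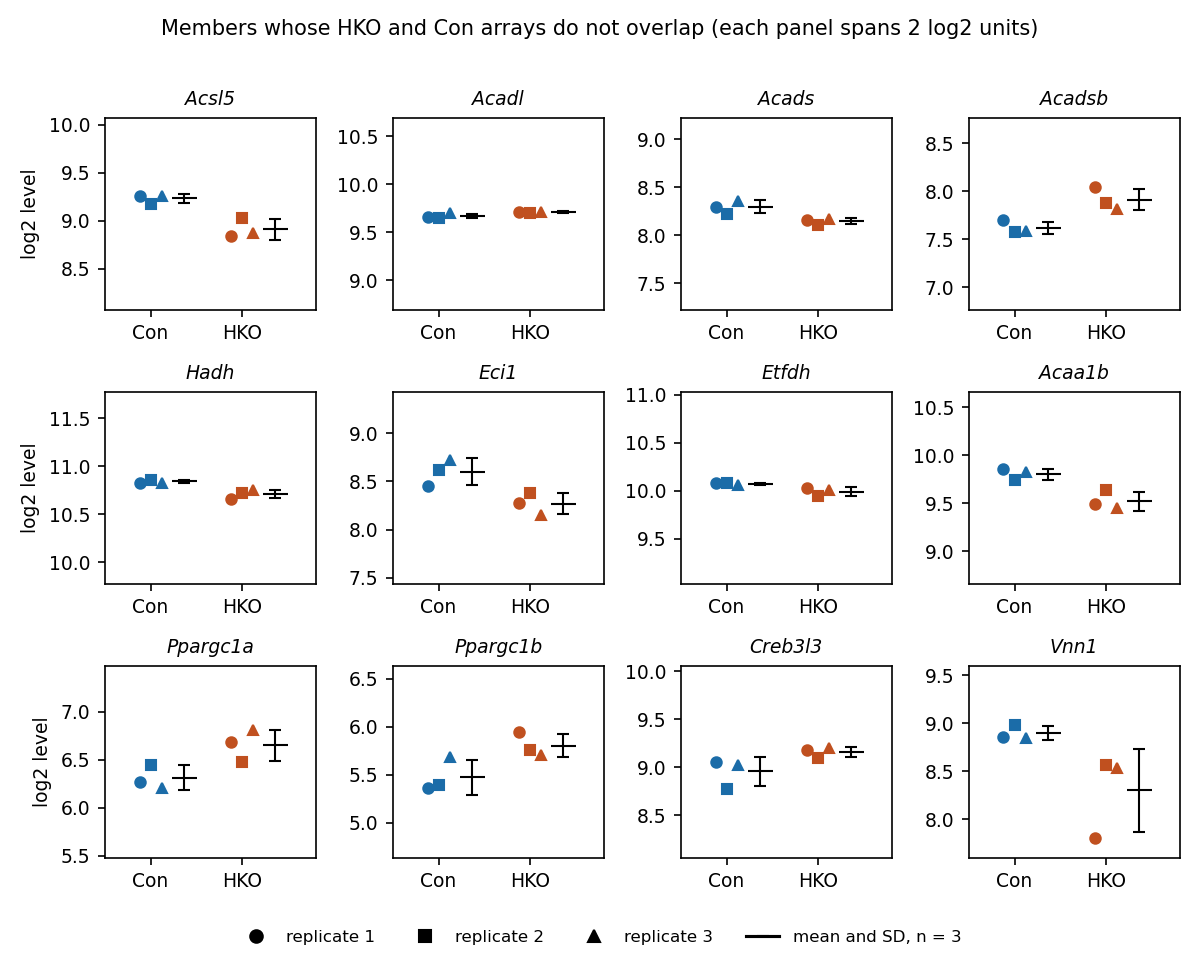
Log2 level (y axis) of the 12 genes whose groups do not overlap, in each Con (blue) and HKO (orange) array; symbols give the replicate and black bars the mean and SD of 3 mice. Every panel spans the same range of log2 units, which shows Vnn1 as the widest separation (a gap of 0.30) and Acadl as the narrowest.

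In activation and the carnitine shuttle, 1 of 6 genes had groups that did not overlap (16.7%, beside 18.2% of all genes). Acsl5, an acyl-CoA synthetase (probe set 17360462), had log2 levels of 9.26, 9.17 and 9.26 in Con and 8.84, 9.03 and 8.87 in HKO. All HKO arrays were below all Con arrays, by at least 0.14. The change was -0.32 ± 0.10 (SE; 1.25-fold lower; limma adjusted p = 0.294), and ran from -0.38 to -0.28 without 1 array. Acsl4, the synthetase with a preference for arachidonic acid, had 7.35, 7.31 and 7.53 in Con and 7.12, 8.10 and 7.71 in HKO. Its HKO arrays lay on both sides of the Con arrays, and the change of 0.25 moved to 0.51 without HKO replicate 1 and to 0.02 without HKO replicate 2.

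The shuttle itself did not separate the groups. Cpt1a, the rate-limiting carnitine acyltransferase of the outer mitochondrial membrane, had means of 10.14 ± 0.04 (SD, n = 3) in Con and 10.19 ± 0.17 in HKO, and the 95% interval of its change was -0.22 to 0.31. Cpt2, the acyltransferase of the inner membrane, had an interval of -0.19 to 0.25, and the carnitine carrier Slc25a20 one of -0.33 to 0.16. Crat, which transfers short acyl groups to carnitine, stood at -0.09 (interval -0.38 to 0.20), and its second, dim probe set (mean level 2.93) at 0.14. Over the 6 genes the median change was -0.03, with 3 means higher and 3 lower. HKO replicate 1 was the lowest array for 4 of the 6, at a mean of -0.20 from the Con mean, while HKO replicate 2 stood at 0.14.

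In the mitochondrial spiral Acadsb and Eci1 had the largest changes of the 12 genes, and the median was -0.01. The groups did not overlap in 5 of the 12 (41.7%, beside 18.2% of all genes). Acadvl (very long chains) changed by 0.02, Acadl (long chains) by 0.04 and Acadm (medium chains) by 0.01, each with a 95% interval inside -0.23 to 0.26. Acadl arrays did not overlap, with 9.66, 9.65 and 9.70 in Con and 9.71, 9.70 and 9.71 in HKO, but the gap was below 0.01 and closed when arrays were centred or quantile normalized once more. Acads (short chains; 8.30, 8.22 and 8.36 in Con, 8.16, 8.11 and 8.17 in HKO) had a change of -0.15 ± 0.10 (SE; limma adjusted p = 0.597). Its groups did not overlap.

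Acadsb, the dehydrogenase for short branched chains from isoleucine (probe set 17484014), was the enzyme with the highest change in HKO. It had log2 levels of 7.70, 7.58 and 7.59 in Con and 8.04, 7.88 and 7.82 in HKO. Every HKO array was above every Con array, by at least 0.12. The change was 0.29 ± 0.11 (SE; 1.22-fold; limma adjusted p = 0.342), and 0.23 without HKO replicate 1.

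Of the later steps of the spiral, 4 had lower means in HKO and Hadhb a higher one. Hadha, the alpha chain of the trifunctional protein, changed by -0.02 (95% interval -0.23 to 0.19). Hadhb, its beta chain, whose gene starts 273 bases from Hadha on the opposite strand (RefSeq, GRCm38.p6), had means of 4.16 in Con and 4.33 in HKO, a change of 0.17 (95% interval -0.21 to 0.54). These levels are near the median over genes of 3.95, and Hadhb is not shown to be above background. Echs1, the short chain hydratase, changed by -0.10, and the thiolase Acaa2 by -0.01. Hadh, the dehydrogenase of hydroxyacyl-CoA, had 10.82, 10.86 and 10.82 in Con and 10.66, 10.72 and 10.75 in HKO. Its groups did not overlap, and the change was -0.12 ± 0.09 (SE; limma adjusted p = 0.655).

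The auxiliary enzymes for unsaturated fatty acids differed between themselves. Eci1, the mitochondrial enoyl-CoA isomerase (probe set 17334253), had 8.45, 8.62 and 8.72 in Con and 8.28, 8.38 and 8.15 in HKO. HKO arrays lay below Con arrays by at least 0.07. The change was -0.33 ± 0.12 (SE; 1.26-fold lower; limma adjusted p = 0.333), and -0.27 without Con replicate 3. Decr1, the mitochondrial dienoyl-CoA reductase, changed by -0.15 with overlapping arrays, Decr2, its peroxisomal counterpart, by -0.03, and Eci2, an isomerase of peroxisomes and mitochondria, by 0.11. Whether these changes differ from each other was not tested.

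The electron transfer flavoprotein, which takes electrons from the acyl-CoA dehydrogenases, had lower means in HKO for all 3 genes, with a median of -0.08. Etfdh, the membrane oxidoreductase that passes the electrons to ubiquinone, had 10.08, 10.08 and 10.06 in Con and 10.03, 9.94 and 10.01 in HKO. The groups were 0.04 apart, and this was 1 of 3 genes here without overlap (33.3%, beside 18.2% of all genes). The limma adjusted p was 0.784, and the groups overlapped after a second quantile normalization. The subunits Etfa (-0.13) and Etfb (-0.05) had overlapping arrays, and HKO replicate 3 was the lowest array for both.

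Peroxisomal oxidation had a median change of -0.04 over 8 genes, 5 with lower and 3 with higher means in HKO. Ehhadh, the bifunctional enzyme that responds strongly to PPAR alpha agonists in rodents, had means of 9.22 ± 0.04 (SD, n = 3) in Con and 9.23 ± 0.13 in HKO, and the interval of the change was -0.24 to 0.25. Hsd17b4, the bifunctional enzyme for branched chains and bile acid precursors, changed by -0.09, the oxidase Acox3 by -0.05, and Crot, which exports shortened chains as carnitine esters, by -0.10. The arrays of these 4 genes overlapped. HKO replicate 3 was the lowest array for 5 of the 8 genes, at a mean of -0.14 from the Con mean, and HKO replicate 2 the highest for 4, at 0.06.

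Acaa1b, a peroxisomal thiolase, was the 1 gene of these 8 whose arrays did not overlap (12.5%, beside 18.2% of all genes). Its probe set 17532063 had 9.85, 9.74 and 9.82 in Con and 9.49, 9.64 and 9.45 in HKO. All HKO arrays were lower, by at least 0.10. The change was -0.28 ± 0.10 (SE; 1.21-fold lower; limma adjusted p = 0.353), and ran from -0.34 to -0.24 without 1 array. Acaa1a, a near copy, changed by 0.13 ± 0.17 (SE) with arrays that overlapped, and -0.03 without Con replicate 1. Probes for these copies can take signal from each other, so how the change is shared between them is uncertain.

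**Figure D3:**
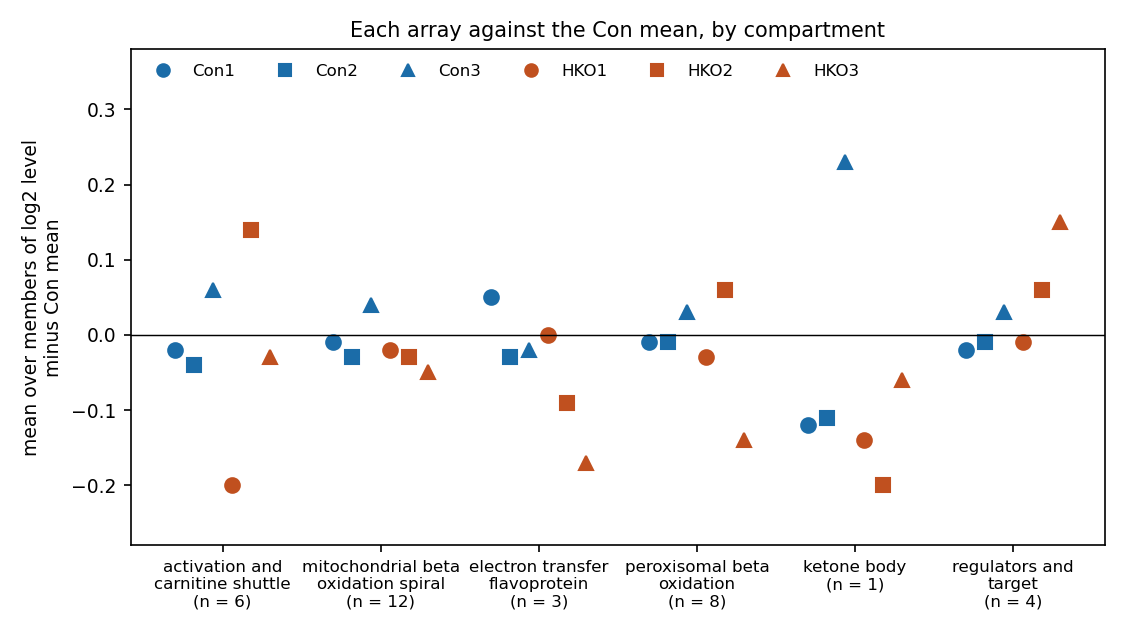
Mean over the members of each compartment of the log2 level minus the Con mean (y axis), for each array (Con blue, HKO orange, symbols by replicate); n under each name is the number of genes. HKO arrays lie on both sides of the Con arrays in the carnitine and peroxisomal groups, from -0.20 to 0.14 and from -0.14 to 0.06.

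The ketone body genes were represented by Bdh1, the mitochondrial hydroxybutyrate dehydrogenase that interconverts the ketone bodies acetoacetate and hydroxybutyrate. Its log2 levels were 8.32, 8.32 and 8.67 in Con and 8.29, 8.24 and 8.37 in HKO. Con replicate 3 was the highest array and the groups overlapped. The change was -0.13 ± 0.13 (SE; limma adjusted p = 0.731), and -0.02 without Con replicate 3.

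Other genes of the pathway were read from lists that hold no member. Of 35 further oxidation and ketone genes, 29 were measured, 0 passed an adjusted p of 0.05 and 6 had an unadjusted p under 0.05, 2 higher and 4 lower in HKO (20.7%, beside 11.9% of all genes). Slc16a1, a monocarboxylate transporter that carries lactate and ketone bodies across the cell membrane, had 7.68, 7.66 and 7.59 in Con and 7.11, 7.13 and 6.90 in HKO. The groups were clearly separate, and the change of -0.60 ± 0.11 (SE; 1.52-fold lower) had a limma adjusted p of 0.0935, the lowest of the list. Pex11a, a peroxisome division protein, changed by -0.58 ± 0.13 (SE; limma adjusted p = 0.157). Abcd2, a peroxisomal carrier of very long chain acyl-CoA, changed by -0.94 ± 0.22 (SE; adjusted p = 0.179), with 6.86, 7.07 and 7.80 in HKO below 8.16, 8.11 and 8.29 in Con. Hacl1, a peroxisomal lyase of alpha oxidation, was higher at 0.45 ± 0.11 (SE; adjusted p = 0.206). The median of the list was 0.04.

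Known PPAR alpha targets outside the oxidation enzymes went both ways. Of 18 listed, 16 were measured, 0 passed, and 5 had an unadjusted limma p under 0.05, 2 higher and 3 lower in HKO (31.2%, beside 11.9% of all genes), with a list median of -0.06. Cd36, a fatty acid uptake protein, changed by -0.66 ± 0.18 (SE; adjusted p = 0.237) and the droplet coat protein Plin2 by -0.49 ± 0.13 (SE; adjusted p = 0.223). Slc27a1, an acyl-CoA synthetase and fatty acid transporter, was higher at 0.63 ± 0.12 (SE; adjusted p = 0.109), and the hydroxylase Cyp4a31 at 1.05 ± 0.22 (SE; adjusted p = 0.136), although probes of the Cyp4a family can take signal from near copies. Among 16 of 18 further regulators, 0 passed and 1 had an unadjusted limma p under 0.05 (6.25%, beside 11.9% of all genes). The groups did not overlap in 5 of these 16, 4 higher and 1 lower in HKO (31.2%, beside 18.2% of all genes). The gene past that p was Rxra, the partner receptor of PPAR alpha, at 0.27 ± 0.10 (SE; adjusted p = 0.341). Ppara itself, chosen after its values were seen, had means of 8.26 ± 0.17 (SD, n = 3) in Con and 8.22 ± 0.11 in HKO and a 95% interval of -0.32 to 0.24.

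**Figure D4:**
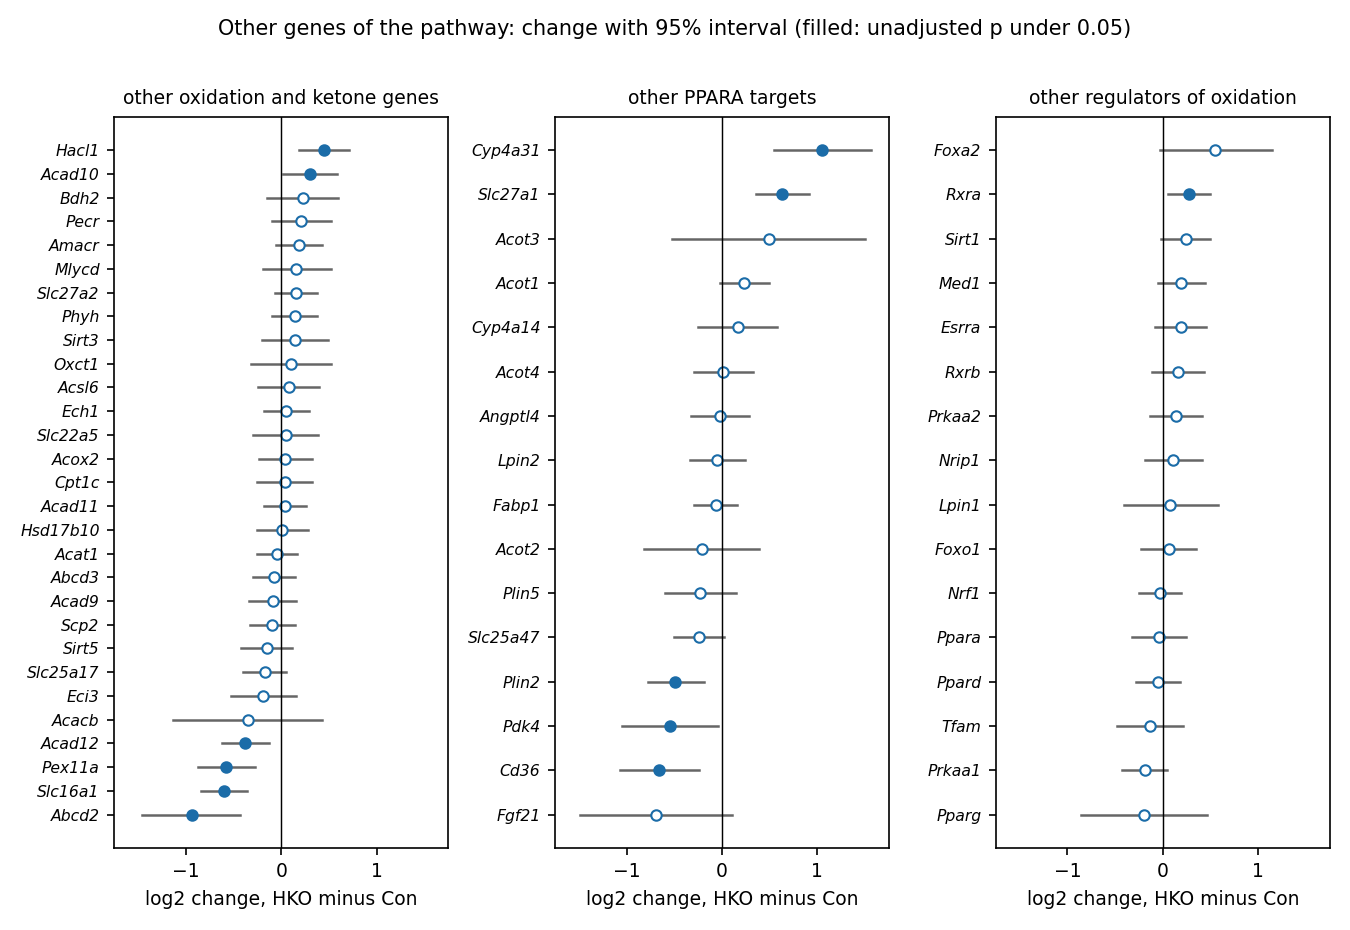
Log2 change, HKO minus Con (x axis), with the 95% interval from limma, for the measured genes of the 3 lists that hold no member (29, 16 and 16 genes on the y axes); n = 3 mice per group, and filled points have an unadjusted p under 0.05. Filled points lie on both sides of 0, from -0.94 for Abcd2 to 1.05 for Cyp4a31.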

How the data were processed

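Liver RNA (400 ng per mouse) was hybridised to Affymetrix whole-transcript arrays, 1 per mouse. The deposited values are log2 levels of probe sets, which the authors obtained by RMA under R 3.3.0, as the submitters' processing notes list. RMA sets the distributions of arrays equal, so changes are relative to the array, and changes of dim genes are compressed. No source used here names further filters or the build of the array design. Of 41345 probe sets, 23521 had 1 gene in the platform annotation, 1814 several and 16010 none; the brightest probe set per gene (mean over 6 arrays) left 22180 genes, with no filter on low values. Arrays have no read depth, and their number limits the precision.

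The HKO and Con arrays were compared by limma 3.58.1 under R 4.3.3 (group as the only term, Benjamini-Hochberg over all genes, threshold 0.05). In 20 simulations over 22180 genes with 200 changed, 98.6% of genes changed by 2 log2 units were recovered and 5.13% of calls were false. Figures used matplotlib 3.10.9. Members and lists were chosen with earlier results of these data known. Values by array are given for members whose groups do not overlap or whose unadjusted p is under 0.05, or the lowest p of a compartment; from other lists, up to 4 genes past that p, by lowest p. Alternatives were other scalings, level filters, probe set choices, variance models, array weights, a replicate block and leaving out each array. Marker lists covered hepatocytes and 11 other cell types.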

Additional observations from a re-analysis of the deposited data

How the results depend on the processing

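None of the 34 genes passed an adjusted limma p of 0.05 under any of 17 alternatives (lowest 0.083, with a variance trend). Of 577 single values, 19 crossed to the other side of 0. They fell in 11 genes, among them Acaa1a with a change of 0.13. The count of all genes past 0.05 was 45 and became 146 and 242 with mean levels of at least 4 and 5, 215 with a variance trend, 4 when all probe sets were tested singly, 0 with no shared variance (2422 at an unadjusted p under 0.05), and 4 to 32 without 1 array; the cause was not tested. Members with an unadjusted p under 0.05 numbered 3 to 7 without 1 array. With no shared variance they numbered 8, beside 10.9% of all genes. Acads, Hadh and Etfdh were then among them, and Ppargc1b and Vnn1 were not. Without 1 array, the median of the mitochondrial spiral ran from -0.05 (without HKO replicate 1) to 0.01 and that of the regulators and Vnn1 from 0.20 (without Con replicate 2) to 0.29. With the replicate number as a block, 3 genes in all and 0 members passed. Deviations of arrays with the same number correlated at 0.02 to 0.03, and those with different numbers at -0.03 to 0.01. Each array correlated best with its own number, but values this small cannot decide whether the numbers pair mice, which is not known. With 3 mice per group, the lack of calls among the members does not show that small changes are absent.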
